A study of Mus musculus with 6 samples.

Results

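The interleukins and their receptors were examined in gastrocnemius muscle in which myofibres expressed a constitutively active aryl hydrocarbon receptor. Members were all rows of the count table whose symbol was Il followed by a number and any further letters or digits, with pseudogene names left out. This gave 85 of 49315 rows and 83 symbols, since Il11ra2 had 3 rows. The rule used names only and no measured value, but it was chosen with earlier results of these data known. It also took in 4 rows that are neither an interleukin nor a receptor for one, namely Il1bos (a transcript opposite Il1b), Il4i1 (an amino acid oxidase) and the synaptic proteins Il1rapl1 and Il1rapl2.

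The muscles came from male C57BL6J mice, an inbred strain, that had received an intramuscular AAV9 (an adeno-associated virus that infects muscle) when 5 months old, and muscle was taken 5 months later. The virus of the first group (AAV9-HSA-CAAHR, replicates 31, 34 and 36) carried an AHR that lacks its ligand binding domain and therefore needs no ligand. The virus of the second group (AAV9-HSA-GFP, replicates 42, 43 and 46) carried a green fluorescent protein, and there were 3 libraries in each group. The HSA promoter, that of human skeletal actin, drives both proteins in myofibres, and the virus does not reach every fibre. All 6 muscles had received a virus and uninjected muscle was not analysed here, so a gene that was lower with CAAHR cannot be told apart from one that was raised in the GFP muscles. By qPCR of selected immune genes, the paper found no decrease with CAAHR relative to uninfected mice. From this it concludes that the GFP virus evokes a local immune response, and its text does not name those genes. The labels do not say more of the replicates than that they are separate samples, so p-values measure the spread between these samples.

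Interleukins are small secreted proteins through which leukocytes, stromal cells and myofibres signal to each other. Most bind paired receptor chains that act through Janus kinases and STAT transcription factors, whereas the IL-1, IL-18, IL-33 and IL-17 receptors act through adaptor proteins and NF-kB. In muscle, IL-6 is released by contracting fibres, IL-15 is made by fibres, and IL-1 beta, IL-10 and others come largely from infiltrating leukocytes. AHR is best known in this family for its role in IL-17 and IL-22 producing lymphocytes.

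Library totals were between 43432994 and 58825752 counts. The delivered gene was checked first. Ahr was at 9.97, 22.8 and 17.3 CPM (counts relative to the library total, TMM-scaled) in the AAV9-HSA-CAAHR libraries 31, 34 and 36 and at 2.47, 2.55 and 1.87 CPM in the AAV9-HSA-GFP libraries 42, 43 and 46, so the labels and the delivered gene matched in every library. In all sentences below, values by library are given in this order. At this depth, 15 of the 85 rows had no count in any library, 11 reached at most 3 counts, and 59 exceeded 3 counts in at least 1 library (50 in AAV9-HSA-CAAHR and 53 in AAV9-HSA-GFP). A group in which no library exceeds 3 counts is said to be at the floor, a limit that covers counting error only. The 15 rows without a count included Il13, Il13ra2, Il17a, Il20, Il22, Il24, Il25, Il3 and Il9.

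The genes with the most transcript per length were receptor chains. Il6st (gp130, the signalling chain shared by the IL-6 family) stood first at 10.8 to 15.9 CPM per kb of exon over the 6 libraries, followed by Il11ra1 (the IL-11 receptor) at 5.30 to 7.81 CPM per kb. Il15ra (2.03 to 2.93 CPM per kb) and Il34, a ligand of the CSF1 receptor (1.68 to 2.26 CPM per kb), came next and their ranges overlapped. Il12a (1.01 to 2.43 CPM per kb), a subunit of IL-12, overlapped both. Il6 (0.0244 to 0.568 CPM per kb) and Il1b (0.135 to 2.20 CPM per kb), which activated leukocytes are known to make, had wider ranges. Both were lower with CAAHR, so these ranges include the difference between the groups. The upper end of Il1b lay in a GFP muscle and within the range of Il34. Other ligands of leukocytes ranged less, such as Il4 (0.2995 to 0.532 CPM per kb) and Il16 (0.189 to 0.286 CPM per kb).

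**Figure D1:**
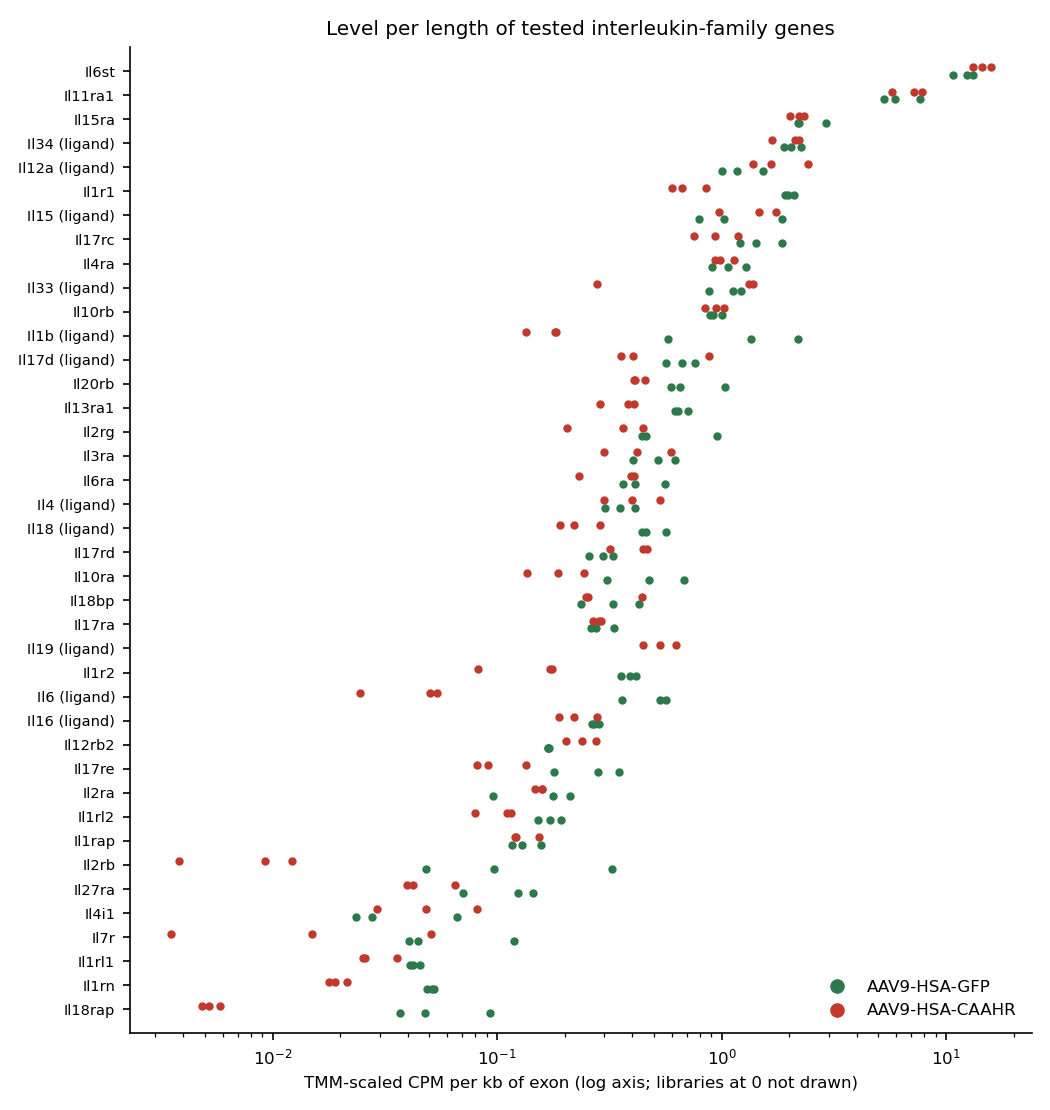
Level of each tested member in each library, as TMM-scaled CPM per kb of merged exon on a log axis, with genes ordered by their mean. Points are libraries (green, AAV9-HSA-GFP, red, AAV9-HSA-CAAHR), and values of 0 are not drawn. Il6st lies between 10.8 and 15.9 CPM per kb at the top, while the red and green points of Il6, Il1b, Il2rb and Il18rap do not overlap.

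Of the 40 members with enough counts for the test, 10 passed an adjusted p of 0.05, and 9 of these were lower and 1 was higher with CAAHR. Over all 15847 genes tested 7.6% passed, 4.57% lower and 3.04% higher. The lower genes were the ligands Il6 and Il1b, the receptor chains Il1r1, Il18rap, Il2rb, Il17re, Il13ra1 and Il10ra, and the decoy receptor Il1r2. The higher gene was the ligand Il19. The test was edgeR's quasi-likelihood F test with Benjamini-Hochberg adjustment over all genes tested, and every adjusted p below comes from it unless another test is named. With upper quartile scaling 11 members passed, 10 of them lower (8.51% of all genes passed), and with library size only 8 passed, 7 of them lower (9.31%), while the share of lower calls over all genes moved from 60.1% to 73.4% and 40.7%. Il6, Il18rap, Il2rb and Il1rn had reached the level needed for testing, 0.193 CPM, in the GFP libraries only, and Il19 in the CAAHR libraries only, so these 5 could enter the test only through the group where they were high, and 4 of them passed. Among the other 35 tested members 6 passed, all of them lower. Without a filter on low counts 16 of 70 members passed (8.62% of all genes), and with at least 10 counts in every library 5 of 30 (7.14%). Without CAAHR replicate 31 or 36, 5 of 43 passed (4.21% and 3.28% of all genes), and without CAAHR replicate 34 it was 10 of 42 (10.7%). In 16 of the 40 tested members every CAAHR library was below every GFP library (14.9% over all genes tested), and in 2, Il19 and the IL-12 receptor chain Il12rb2, it was above (15%). An unadjusted p under 0.05 was found for 18 of the 40, against 23.9% of all genes. The median log2 fold change of the 40 was -0.27, against 0.0086 over all genes tested.

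**Figure D2:**
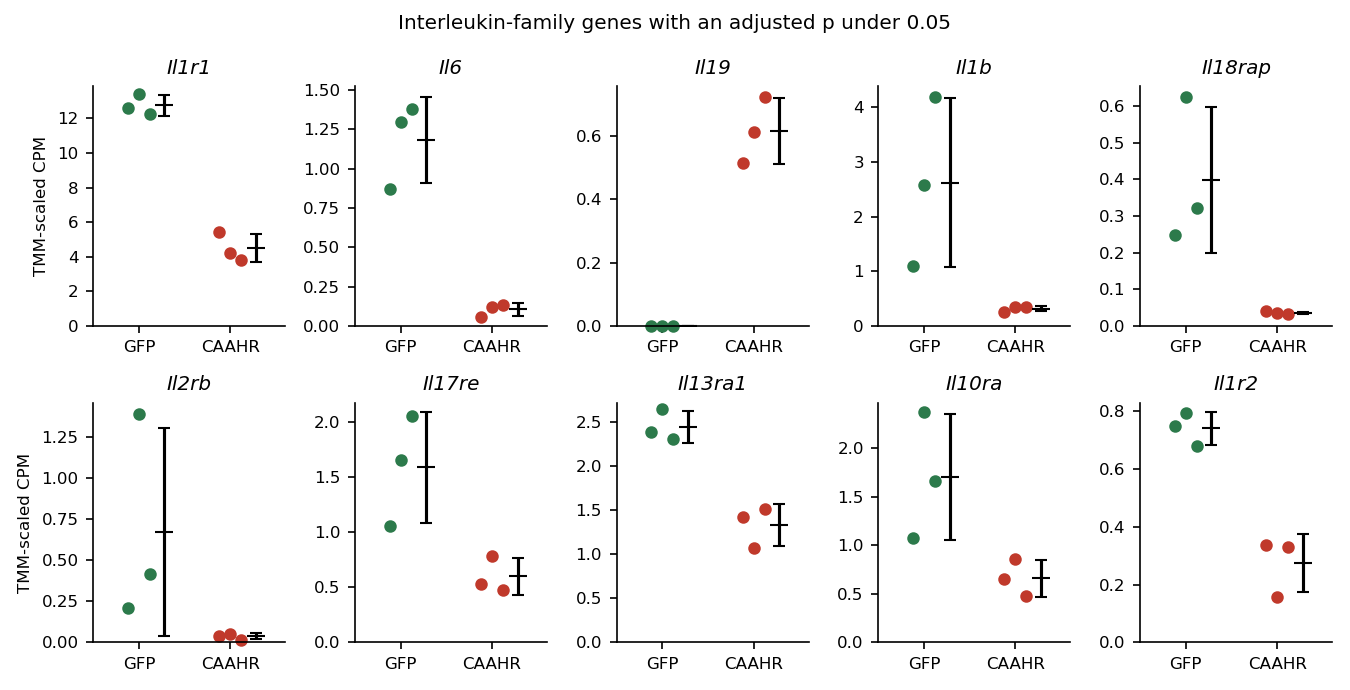
TMM-scaled CPM of the 10 members with an adjusted p under 0.05 in each of the 3 AAV9-HSA-GFP (green) and 3 AAV9-HSA-CAAHR (red) libraries, with the mean and SD as bars. Each axis starts at 0. Il1r1 lies between 12.2 and 13.4 CPM in the GFP muscles and between 3.84 and 5.42 CPM in the CAAHR muscles, and Il19 has no count in any GFP muscle.

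Among the ligands, Il19 was the called member that rose. Il19, a cytokine of the IL-10 family (ENSMUSG00000016524, chromosome 1, 130932656 to 130940115, minus strand, GRCm38), had 26, 35 and 44 counts with CAAHR and 0 in each GFP library. Its level was 0.616 ± 0.104 CPM (SD, n = 3), at least 9.68-fold higher than the 3 counts in each GFP library that a count of 0 allows (adjusted p = 0.00186). Its neighbours in the IL-10 cluster had other patterns. Il20 and Il24, which lie beside Il19 on the same strand, had no count in any library. Il10, which encodes a cytokine that restrains inflammation and lies on the opposite strand (131019845 to 131024974), had 0, 0 and 2 counts with CAAHR and 15, 24 and 8 counts with GFP. Il10 was lower in every CAAHR library, by 27.8-fold in pooled counts (95% counting interval 7.27 to 235.9). It had too few counts for the test, and when no filter was applied its adjusted p was 3.317e-06. That fit took in 28661 genes, and Il10 was at the floor with CAAHR. Adjusted p values without a filter therefore do not compare with those of the main test. The receptor of IL-19 is a pair of chains, and Il20ra reached at most 1 count in any library. The partner chain Il20rb, named here after its values were seen, was at 1.74, 1.93 and 1.72 CPM with CAAHR and 4.35, 2.74 and 2.51 CPM with GFP (log2 fold change -0.83 ± 0.23 (SE), adjusted p = 0.0604).

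**Figure D3:**
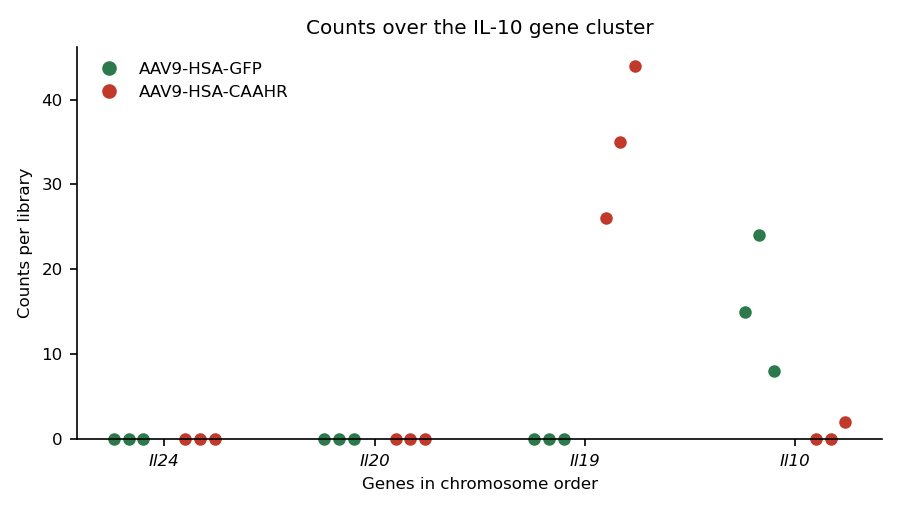
Counts per library of the 4 genes of the IL-10 cluster in chromosome order (green, AAV9-HSA-GFP, red, AAV9-HSA-CAAHR). Il24 and Il20 are at 0 in all 6 libraries, Il19 has counts in the CAAHR libraries only, and Il10 has 8 to 24 counts in the GFP libraries against at most 2.

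The bases before the start of Il19 are shown because it was the called member that rose in muscle with an active AHR. The sequence is that of RefSeq on GRCm38, 5′ to 3′ on the gene's strand, and capitals would mark the AHR core motif GCGTG on either strand. None occurred in these 250 bases:
Il19, chr1:130940116-130940365, minus strand: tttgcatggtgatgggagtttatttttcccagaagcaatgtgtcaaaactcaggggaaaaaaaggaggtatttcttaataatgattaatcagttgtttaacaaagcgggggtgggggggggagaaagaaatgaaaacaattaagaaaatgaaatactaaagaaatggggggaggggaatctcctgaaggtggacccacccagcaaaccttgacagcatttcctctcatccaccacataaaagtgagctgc

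Il6, a cytokine made by contracting fibres and by leukocytes (ENSMUSG00000025746, chromosome 5, 30013114 to 30019981), had 3, 7 and 8 counts with CAAHR and 42, 54 and 73 counts with GFP. The groups did not overlap, and the level was 1.18 ± 0.273 CPM with GFP and 0.104 ± 0.0392 CPM with CAAHR (SD, n = 3 each). The log2 fold change was -3.45 ± 0.40 (SE, adjusted p = 0.00134). The 250 bases before its start hold an NF-kB motif (GGG, any pair of bases, then TTTCC), which was searched on both strands and is shown in capitals, because Il6 was the called member with a match:
Il6, chr5:30012864-30013113, plus strand: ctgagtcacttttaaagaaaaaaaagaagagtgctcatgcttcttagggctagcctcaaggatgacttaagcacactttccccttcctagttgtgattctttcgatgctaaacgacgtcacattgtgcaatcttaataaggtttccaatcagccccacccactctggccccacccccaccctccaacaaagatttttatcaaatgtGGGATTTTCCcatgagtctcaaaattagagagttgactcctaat

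Il1b encodes IL-1 beta, which starts inflammatory responses (ENSMUSG00000027398, chromosome 2, 129364570 to 129371139, minus strand). It was at 0.257, 0.350 and 0.345 CPM with CAAHR and at 1.10, 2.57 and 4.19 CPM with GFP. Its log2 fold change was -3.03 ± 0.48 (SE, adjusted p = 0.00851). The CAAHR libraries lay close together, whereas the GFP libraries spread widely, and without CAAHR replicate 36 the adjusted p was 0.0501. Exons of Il1bos overlap 25 bases of Il1b on the opposite strand, and Il1bos had at most 2 counts. Il1a, the other IL-1 agonist, was near the floor with 4, 0 and 0 counts against 1, 3 and 4.

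The remaining tested ligands did not pass the test. Il12a, the IL-12 subunit named above, was at 2.83, 4.13 and 2.35 CPM with CAAHR and 2.59, 1.995 and 1.72 CPM with GFP (log2 fold change 0.56 ± 0.25, adjusted p = 0.211), and the groups overlapped. Il18, a cytokine that needs cleavage by caspase-1, was at 0.297, 0.228 and 0.197 CPM with CAAHR and 0.477, 0.457 and 0.585 CPM with GFP (log2 fold change -1.08 ± 0.35, adjusted p = 0.0957), and the groups did not overlap. Il15, which sustains natural killer and memory T cells, was at 3.96, 2.21 and 3.31 CPM against 1.80, 2.33 and 4.19 CPM (0.18 ± 0.33, adjusted p = 0.806). Il34 was at 4.35, 3.29 and 4.18 CPM against 3.73, 3.99 and 4.42 CPM (adjusted p = 0.920). For Il15 and Il34 the groups overlapped. Il33, an alarmin held in the nucleus of stromal cells, had 202 and 234 counts in CAAHR replicates 31 and 36 but 46 in replicate 34, against 156, 146 and 134 with GFP (adjusted p = 0.939). The summed fibroblast markers were also lowest in that library, at 302.7 CPM against 427 to 543 CPM in the other 5. So were the macrophage, dendritic cell, Schwann cell and adipocyte sums and, by little, the neutrophil sum. The part of these markers in the Il33 value was not tested. Il16, a chemoattractant for CD4+ cells, was at 1.48 to 2.20 CPM against 2.09 to 2.25 CPM (adjusted p = 0.505). Il4, the type 2 cytokine that recruits myoblasts during fusion, was at 0.368 to 0.653 CPM against 0.373 to 0.505 CPM (adjusted p = 0.784). Il17d, an IL-17 ligand made outside the immune system, was at 0.455 to 1.12 CPM against 0.721 to 0.974 CPM (adjusted p = 0.715).

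Several ligands were detected too thinly to be tested. Il7, a survival factor for lymphocytes, had 1, 8 and 4 counts with CAAHR and 8, 7 and 6 with GFP, and Il11 had 9, 5 and 1 counts against 2, 1 and 3. In both the groups overlapped. Il17b had 2 counts in CAAHR replicate 36 and none elsewhere.

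Among the receptors, Il1r1 was the member whose groups were most clearly apart. Il1r1 encodes the signalling receptor of IL-1 (ENSMUSG00000026072, chromosome 1, 40225080 to 40317257). It was at 5.42, 4.24 and 3.84 CPM with CAAHR and 12.6, 13.4 and 12.2 CPM with GFP, a mean of 4.50 ± 0.822 CPM against 12.8 ± 0.586 CPM (SD, n = 3 each). The level was 2.84-fold lower with CAAHR than with GFP (log2 fold change -1.50 ± 0.15 (SE), adjusted p = 0.00064). Il1r2, which lies next to it (40074079 to 40125231) and encodes a decoy that binds IL-1 without signalling, was at 0.336, 0.158 and 0.328 CPM against 0.746, 0.793 and 0.680 CPM (-1.43 ± 0.36, adjusted p = 0.0449). Leaving out any of the 6 libraries ended the call of Il1r2 (adjusted p between 0.0705 and 0.117), as did library size only (0.0529). The shared accessory chain Il1rap, which IL-1 and IL-33 receptors both need, was at 1.36, 1.38 and 1.76 CPM against 1.33, 1.78 and 1.47 CPM (-0.02 ± 0.22, adjusted p = 0.973). Il1rn, the secreted receptor antagonist, was at 0.119, 0.105 and 0.0984 CPM against 0.269, 0.288 and 0.283 CPM, which did not overlap but did not pass the test (-1.37 ± 0.41, adjusted p = 0.0752). Il1rl1, the IL-33 receptor, was at 0.175 to 0.246 CPM against 0.283 to 0.312 CPM (adjusted p = 0.427). Of the 11 tested IL-1 family ligands, receptors and inhibitors, 4 passed (7.6% over all genes tested). All 11 estimates were below 0 (48.8% over all genes tested). Il18rap, which passed, and Il1rn, which did not, could enter the test through the GFP libraries only. With library size only the estimates of Il1rap (0.0642) and the IL-18 binding protein Il18bp (0.0200) were above 0. That of Il1rap was also above 0 with limma-voom. Those of Il1rap, Il18bp and Il33 turned positive when certain libraries were left out.

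Among the called genes with a promoter in RefSeq (8 of 10), the AHR core GCGTG on either strand occurred near the starts of Il1r1 and Il1r2 only. These 2 sequences are shown because the genes are neighbours and both were lower, with each occurrence in capitals (GCGTG, or CACGC where it reads on the opposite strand). Both windows are on the plus strand, and Il1r1 has a further start in RefSeq that is not printed:
Il1r1, chr1:40266336-40266585: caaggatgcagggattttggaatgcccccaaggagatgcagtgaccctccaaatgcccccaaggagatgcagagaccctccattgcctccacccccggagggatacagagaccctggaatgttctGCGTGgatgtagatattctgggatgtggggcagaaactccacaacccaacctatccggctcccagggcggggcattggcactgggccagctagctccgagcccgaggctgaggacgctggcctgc
Il1r2, chr1:40085843-40086092: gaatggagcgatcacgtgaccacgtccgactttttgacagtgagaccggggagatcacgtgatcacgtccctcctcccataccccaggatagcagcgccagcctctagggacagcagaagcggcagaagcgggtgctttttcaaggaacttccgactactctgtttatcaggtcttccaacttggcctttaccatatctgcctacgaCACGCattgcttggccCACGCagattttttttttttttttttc
In windows of 300 bases (250 before to 50 after the start), this core occurred in 21 of 81 windows of the family (25.9%) and in 32.4% of all 32851 windows. The NF-kB motif occurred in 8 of 81 windows of the family (9.88%) and in 1.63% of all windows, and among the called members in that of Il6 alone. Matches are descriptions of letters and not of bound sites.

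Il18rap and Il2rb, receptor chains found on lymphocytes, were at the floor with CAAHR. Il18rap, the accessory chain of the IL-18 receptor (chromosome 1, 40515362 to 40551705), had 2 counts in each CAAHR library and 12, 26 and 17 with GFP, a ratio of 10.8 in pooled counts (95% counting interval 4.67 to 30.8, adjusted p = 0.0090). Its partner Il18r1, which was not tested, had 6, 0 and 2 counts against 6, 21 and 13, and without a filter its adjusted p was 0.00709. Il2rb, the beta chain shared by IL-2 and IL-15 (chromosome 15, 78479256 to 78495271, minus strand), had 2, 3 and 1 counts against 10, 58 and 22, a ratio of 17.7 (counting interval 7.83 to 49.6, adjusted p = 0.0251). The call of Il2rb rested on 6 counts in all with CAAHR and was lost without CAAHR replicate 31 (adjusted p = 0.0868) or 36 (0.108) and with limma-voom (0.0603). The other chains of the IL-15 receptor did not pass the test. Il15ra was at 9.89, 9.01 and 10.3 CPM against 9.78, 13.0 and 9.84 CPM (-0.16 ± 0.14, adjusted p = 0.544), and Il2rg, the common gamma chain, at 0.490 to 1.07 CPM against 1.06 to 2.28 CPM (adjusted p = 0.219). Il7r, the IL-7 receptor of lymphocytes, had 12, 4 and 1 counts against 10, 23 and 10 (adjusted p = 0.260). Il21r, named here after its values were seen, had 2, 3 and 3 counts against 13, 42 and 8 and was not tested.

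The 3 remaining called receptors were lower by less than 3-fold. Il10ra, the ligand-binding chain for IL-10 (chromosome 9, 45253837 to 45269149, minus strand), was at 0.653, 0.858 and 0.476 CPM with CAAHR and 1.08, 2.38 and 1.66 CPM with GFP (-1.36 ± 0.35, adjusted p = 0.0446). Il10rb, the chain that IL-10 shares with other cytokines, was at 3.60, 3.20 and 3.92 CPM against 3.81, 3.49 and 3.38 CPM (0.0064 ± 0.15, adjusted p = 0.988), and its sign turned with upper quartile scaling (-0.0664). Il17re, the receptor chain for IL-17C (chromosome 6, 113458484 to 113470758), was at 0.534, 0.788 and 0.476 CPM against 1.06, 1.66 and 2.06 CPM (-1.41 ± 0.33, adjusted p = 0.0308). Its ligand gene Il17c had 2 counts in CAAHR replicate 36, 7 in GFP replicate 42 and none elsewhere. Il13ra1, which joins IL-4 receptor alpha to bind IL-13 (chromosome X, 36112110 to 36171259), was at 1.42, 1.07 and 1.51 CPM against 2.38, 2.64 and 2.30 CPM (-0.87 ± 0.21, adjusted p = 0.0353). Leaving out CAAHR replicate 31 or 36 or GFP replicate 43 or 46 ended the calls of Il10ra and Il17re, with adjusted p up to 0.145 and 0.122. Il10ra also lost it with limma-voom (0.0550). That of Il13ra1 was lost when any library was left out, with adjusted p up to 0.113, and with library size only (0.0512).

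Apart from Il1r1, the receptors among the 10 tested members with the highest CPM did not pass the test. Il6st was at 159.8, 146.3 and 176.1 CPM with CAAHR and 146.7, 137.2 and 119.4 CPM with GFP (0.26 ± 0.11, adjusted p = 0.209), and Il6ra, which binds IL-6 itself, was at 2.01 to 3.51 CPM against 3.15 to 4.86 CPM (-0.37 ± 0.25, adjusted p = 0.413). Il11ra1 was at 25.8 to 34.9 CPM against 23.7 to 34.3 CPM (adjusted p = 0.670). It has near-identical copies in Il11ra2, and reads that match several copies are not counted when only uniquely placed reads are summed. Il4ra, shared by IL-4 and IL-13, was at 5.62 to 6.84 CPM against 5.47 to 7.69 CPM (adjusted p = 0.786). Among the IL-17 receptor chains, Il17ra was at 2.31 to 2.51 CPM against 2.27 to 2.88 CPM (adjusted p = 0.915) and Il17rc at 2.01 to 3.16 CPM against 3.23 to 4.95 CPM (-0.65 ± 0.22, adjusted p = 0.109). Il17rd, a membrane protein that also restrains fibroblast growth factor signalling, was at 4.92, 3.48 and 5.12 CPM against 2.82, 3.61 and 3.25 CPM (0.48 ± 0.19, adjusted p = 0.155). It passed only without CAAHR replicate 34 (adjusted p = 0.0414). The inhibitor Il18bp was at 0.753 to 1.35 CPM against 0.718 to 1.30 CPM (adjusted p = 0.932). The tested members without values of their own (Il1rl2, Il27ra, Il12rb2, Il3ra, Il4i1 and Il2ra) had adjusted p values from 0.118 to 0.947. Exons of Serbp1 overlap 1519 bases of Il12rb2, and Il4i1 also shares exon bases with its neighbours.

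**Figure D4:**
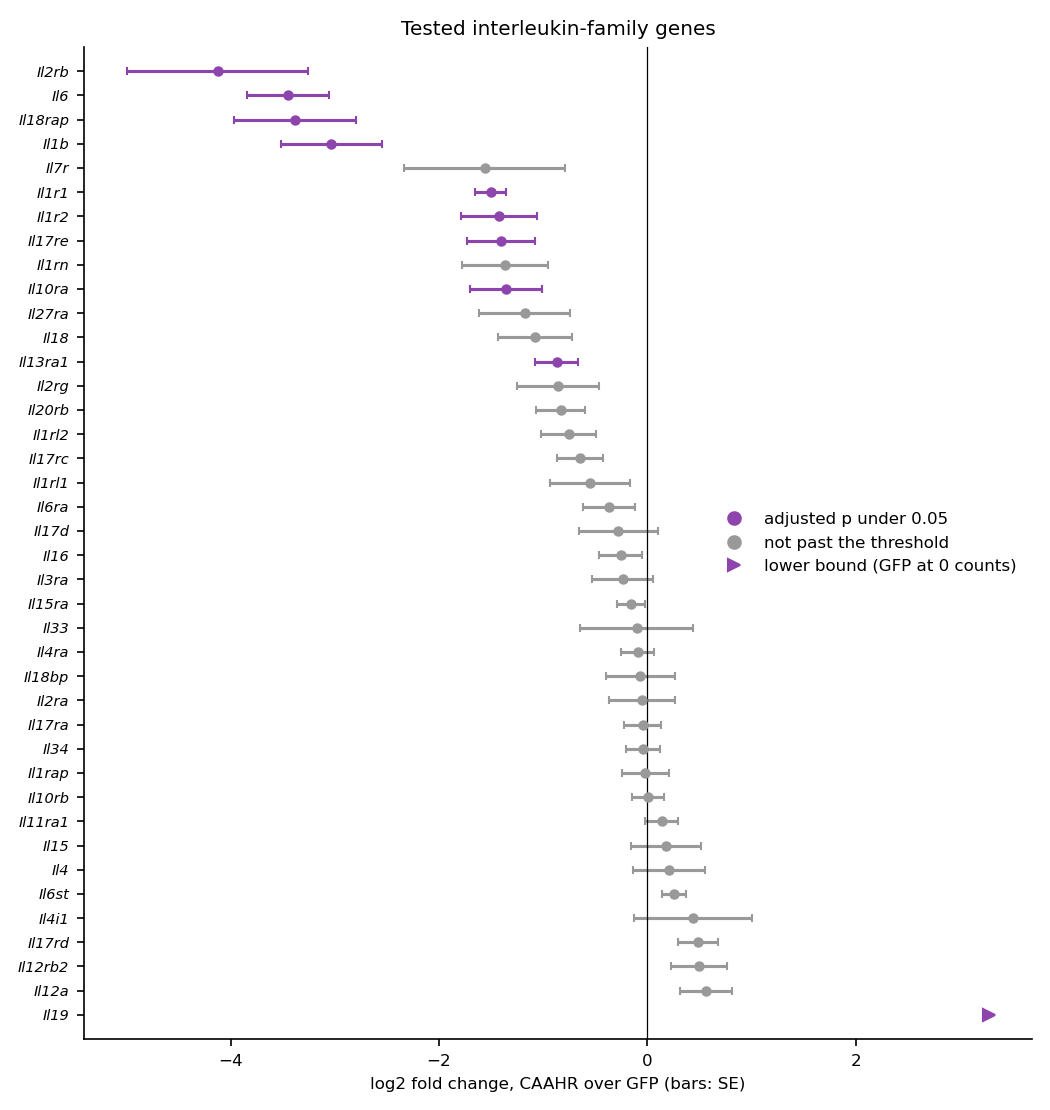
Log2 fold change of CAAHR over GFP for the 40 tested members, with the SE as bars. Purple marks an adjusted p under 0.05, and the triangle marks the lower bound of 9.68-fold for Il19, drawn on the log2 scale. The 9 lower calls lie between Il2rb at -4.12 and Il13ra1 at -0.87, and the receptors Il6st, Il11ra1 and Il15ra lie close to 0.

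Pathway genes that carry no Il symbol were read from lists chosen with earlier results of these data known. Their counts are descriptions of genes that act with the interleukins. Of 110 such genes 96 were tested and 24 passed, 20 lower and 4 higher, where 7.6% of all genes tested passed, 4.57% lower and 3.04% higher. These shares also stand beside the counts of the lists that follow. None of the 10 tested Janus kinases and STATs passed, and 2 had an unadjusted p under 0.05, against 23.9% of all genes tested. With the DESeq2 Wald test 35 of the 96 pathway genes passed (12.6% of all genes). Of 16 tested genes known to be induced by IL-1, IL-6 or IL-17, 8 passed and all 8 were lower, with a median log2 fold change of -1.34 over the 16. Ptgs2, the inducible cyclooxygenase, had 13, 17 and 21 counts with CAAHR and 163, 302 and 278 with GFP (-4.12 ± 0.32, adjusted p = 0.000222). The neutrophil chemokine Cxcl1 had 4, 22 and 25 counts against 158, 322 and 488 (-4.49 ± 0.58, adjusted p = 0.00705), and the related Cxcl2 had 0, 3 and 6 against 39, 69 and 113 (-4.80 ± 0.66, adjusted p = 0.00363). Ccl2, which attracts monocytes, was lower by 2.52 on the log2 scale (adjusted p = 0.0118). The endothelial adhesion genes Sele (1, 2 and 1 counts against 22, 17 and 28, adjusted p = 0.00179) and Vcam1 (log2 fold change -1.08 ± 0.20, adjusted p = 0.0132) were lower too, as was the NF-kB cofactor Bcl3 (-1.62 ± 0.32, adjusted p = 0.0162). Sele and Cxcl2 were below 0.193 CPM in every CAAHR library and so entered the test through the GFP libraries only.

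Within IL-1 and IL-17 receptor signalling, 5 of 22 tested genes passed, 3 lower (Nfkbiz, Relb and Traf3ip2) and 2 higher (Rel and Map3k7). Nfkbiz (-1.04 ± 0.19, adjusted p = 0.0107) and Relb (-0.66 ± 0.12, adjusted p = 0.0130), which act in NF-kB transcription, were lower, and Rel, an NF-kB subunit, was higher (0.63 ± 0.12, adjusted p = 0.0137). Of 8 tested genes for processing and release of IL-1 and IL-18, 3 passed and were lower (Casp4, Gsdmd and P2rx7). The inflammatory caspase Casp4 had 34, 40 and 41 counts against 128, 111 and 167 (-2.05 ± 0.20, adjusted p = 0.000722). Tnfaip3 (A20), which restrains NF-kB, was lower as well (-1.53 ± 0.25, adjusted p = 0.00844).

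The Socs genes, whose products switch off cytokine receptors, moved in different directions. Socs2 was lower (-0.77 ± 0.17, adjusted p = 0.0260), while Socs7 (0.43 ± 0.09, adjusted p = 0.0229) and Socs6 (0.41 ± 0.11, adjusted p = 0.0483) were higher. Socs3, a target of IL-6 signalling through STAT3, had 93, 215 and 677 counts with CAAHR and 685, 882 and 1020 with GFP, which did not overlap but did not pass (-1.70 ± 0.68, adjusted p = 0.219). Socs1 was at 1.15, 2.38 and 4.86 CPM against 0.456, 1.54 and 0.736 CPM (adjusted p = 0.173). Socs4 (adjusted p = 0.202) and Socs5 (0.352) did not pass the test.

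Summed markers of neutrophils, lymphocytes, dendritic cells and macrophages were lower in every CAAHR library than in any GFP library. The marker lists were also chosen with earlier results of these data known. In bulk muscle, fewer cells of a type and less RNA per cell cannot be told apart. The summed neutrophil markers were at 2.52 to 3.42 CPM with CAAHR and 7.67 to 17.9 CPM with GFP, and 5 of 6 tested markers passed and were lower (S100a8, S100a9, Retnlg, Mmp8 and Csf3r). The defining marker Ly6g had at most 3 counts in any library, and Camp at most 1. The T and NK cell markers summed to 1.17 to 1.75 CPM against 3.01 to 10.5 CPM (2 of 4 tested markers lower, Cd2 and Cd8b1), with Ncr1 at 0 in all libraries but 1. Cd3e, the largest part of that sum in every library, was at 0.837 to 1.45 CPM against 0.963 to 2.28 CPM (adjusted p = 0.516). The B and plasma cell markers summed to 9.65 to 19.5 CPM against 127.6 to 432.4 CPM (4 of 8 lower, Ighm, Mzb1, Cd79a and Cd79b). The dendritic cell markers were at 6.58 to 8.64 CPM against 9.37 to 12.1 CPM (2 of 6 lower, Ccr7 and Itgax). The largest part of that sum was Zbtb46, at 5.6 to 7.297 CPM against 6.585 to 7.004 CPM (adjusted p = 0.711). The called markers Cd2, Cd8b1, Mmp8 and Ccr7 were below 0.193 CPM in every CAAHR library and could enter the test through the GFP libraries only. The macrophage markers were at 27.6 to 46.7 CPM against 54.7 to 119.4 CPM, and none of the 10 passed, although 8 had an unadjusted p under 0.05.

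The leukocyte sums also differed within the GFP group. GFP replicate 46 had the highest neutrophil sum (17.9 CPM, against 7.67 in replicate 42 and 10.8 in replicate 43), and among the called members Il1b, Il6 and Il17re were highest in that library. For Il6 the lead over replicate 43 was small, at 1.38 CPM against 1.30 CPM. GFP replicate 43 had the highest T and NK cell sum (10.5 CPM, against 3.01 and 3.42 in replicates 42 and 46), B and plasma cell sum (432.4 CPM, against 127.6 and 264.2), macrophage sum (119.4 CPM, against 54.7 and 77.1) and dendritic cell sum (12.1 CPM, against 9.76 and 9.37). The called members Il2rb, Il18rap, Il10ra, Il1r1, Il13ra1 and Il1r2 were highest in replicate 43. Il1r1 led by little, at 13.4 CPM against 12.6 and 12.2. Il1r2 (0.793 CPM against 0.746 and 0.680) and Il13ra1 (2.64 CPM against 2.38 and 2.30) did so too. The part of these markers in the interleukin results was not tested.

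Marker sums of fibroblasts and endothelial cells overlapped between the groups. Those of mast cells and basophils, Schwann cells, muscle fibres and slow fibres did not. Fibroblast markers summed to 302.7 to 543 CPM with CAAHR and 427 to 533.8 CPM with GFP, endothelial markers to 160.9 to 226.4 CPM against 157.9 to 201.7 CPM, and in neither list did a marker pass (1 of 7, Dpt, and 0 of 6 had an unadjusted p under 0.05). The DESeq2 Wald test called 40 of the 85 tested markers over all lists (12.6% of all genes), against 20 here (7.6%). Mast cell and basophil markers were at 2.54 to 2.68 CPM against 2.69 to 6.36 CPM, and none of 5 passed, although 3 had an unadjusted p under 0.05. Schwann cell markers were at 30.9 to 49.5 CPM against 52.3 to 90.0 CPM (1 of 6 lower, Ngfr) and adipocyte markers at 86.3 to 138.8 CPM against 107.9 to 228.7 CPM (2 of 6 lower, Cfd and Plin1). The largest part of the adipocyte sum was Fabp4, at 82.8 to 118.1 CPM against 72.6 to 132.3 CPM (adjusted p = 0.957). Log2 fold changes of the other adipocyte markers ran from -3.05 for Cfd to -1.65 for Lep. Satellite cell markers overlapped, at 27.98 to 36.5 CPM against 30.3 to 33.2 CPM, and 1 of 5 was lower (Vcam1, named above). Of 8 muscle fibre markers 3 were lower (Acta1, Ckm and Tnnt3), while 4 of the 8 estimates were above 0. The muscle fibre markers summed to 131800 to 163600 CPM with CAAHR and 195200 to 195300 CPM with GFP. The slow fibre markers were at 645.6 to 2772 CPM with CAAHR and 226.6 to 459.7 CPM with GFP, and none of 8 passed, although 7 had an unadjusted p under 0.05.

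**Figure D5:**
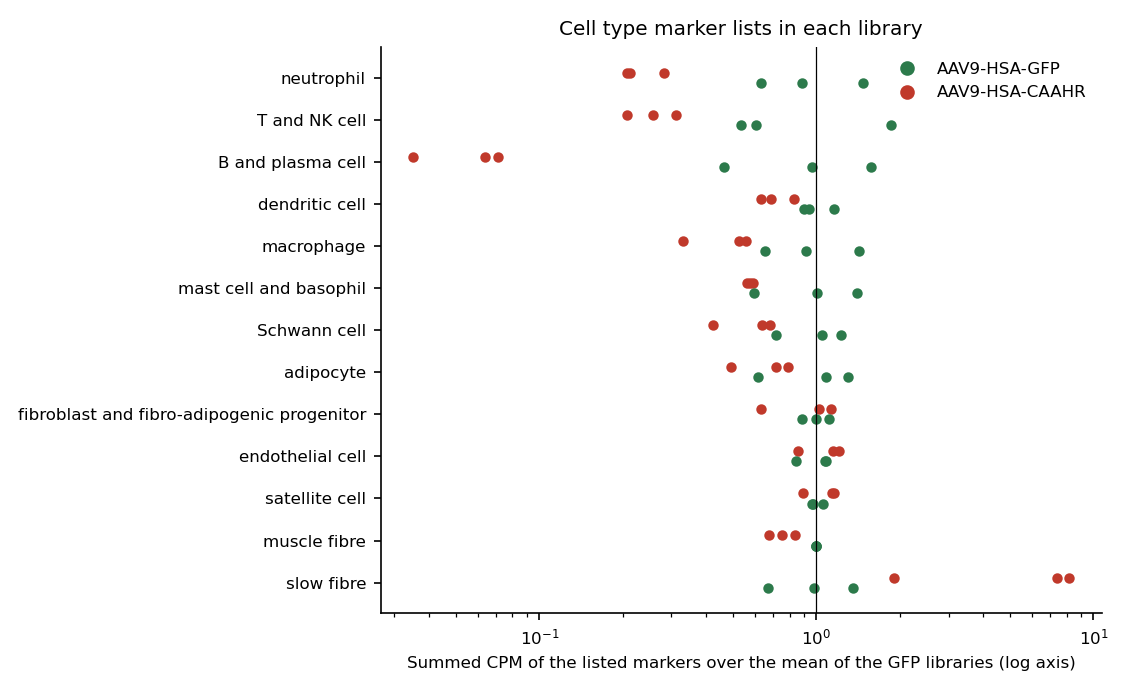
Summed CPM of each cell type marker list in each library, divided by the mean of the 3 AAV9-HSA-GFP libraries, on a log axis (green, AAV9-HSA-GFP, red, AAV9-HSA-CAAHR). The leukocyte lists lie below 1 in all CAAHR libraries, and the fibroblast, endothelial and satellite cell lists overlap between the groups.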

How the data were processed

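Messenger RNA of 6 gastrocnemius muscles was measured by RNA sequencing, with 3 libraries per group. According to the methods, RNA was selected for poly(A) tails, paired reads passed through Trimmomatic 0.36 for trimming and STAR 2.5.2b for alignment to GRCm38, and uniquely placed exon reads were summed by gene with featureCounts. The deposited values were raw counts per gene, not normalised and not pooled. Whether the libraries were stranded is not given in the sources used here, so reads of genes with exons that overlap a neighbour are uncertain (among the members named, Il1a, Il1b, Il1bos, Il1rap, Il2rg, Il3ra, Il4i1, Il4ra, Il5, Il6ra, Il7, Il10rb, Il11ra1, Il12rb2, Il16, Il17b, Il18bp, Il21, Il27ra and Il34).

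Positions and merged exon lengths came from GENCODE M21 on GRCm38, which held all 85 family rows. In R 4.3.3, edgeR 4.0.16 was run on all genes: filterByExpr left 15847, libraries were scaled by TMM, and CAAHR was set against GFP by the robust quasi-likelihood F test at a Benjamini-Hochberg adjusted p of 0.05. The SE of a log2 fold change was derived from its F statistic. Counting intervals are exact, at 95%, on counts pooled over the libraries of a group, and do not cover the spread between samples. No library repeated another, since counts of any pair within a group had a chi-square of 23.1 or more for each degree of freedom. Calculations were tested on simulated data. RefSeq promoters on GRCm38 were found for 66 of 83 symbols.

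The members and gene lists were chosen with earlier results of these data known. Values were given for every called member, for tested members of a list of muscle interleukins and their receptors, and for the 10 tested members with the highest CPM. Pathway genes were named if called, at most 12 by p, along with the Socs genes. Genes that only complete a small count (such as Map3k7, Gsdmd and the called markers) were named after their values were seen. Alternatives covered scaling, filters, DESeq2 1.42.0 (the authors' tool), limma 3.58.1 voom with quality weights, non-robust edgeR and leaving out each library. No group was large enough for a test of outlying libraries.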

Additional observations from a re-analysis of the deposited data

How the results depend on the processing

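Of the 10 called members, Il1r1, Il6, Il19 and Il18rap passed in every alternative that gave a value (14, 13, 13 and 12 alternatives). Il6, Il19, Il18rap, Il2rb and Il1r2 were not tested when at least 10 counts were required in every library, Il18rap had no adjusted p in the DESeq2 Wald test, and Il2rb was not tested without GFP replicate 46. The count of called members was 16 with no filter on low counts (adding Il10, Il17rc, Il18r1, Il20rb, Il21r and Il9r), 5 with at least 10 counts in every library (30 tested), and 5 to 10 when a library was left out, with 5 both without CAAHR replicate 31 and without CAAHR replicate 36. Over all genes it was 2470 with no filter, 1923 with the DESeq2 Wald test, 551 when a fold over 2 was also required, and 530 to 1727 when a library was left out. Calls among pathway genes were 43 with no filter, 15 over 2-fold and 11 to 28 when a library was left out. Marker calls, an alternative added after seeing the data, were 39 with no filter, 13 with at least 10 counts, 40 with the DESeq2 Wald test, 32 with edgeR without robust estimation and 6 to 26 when a library was left out. Of all genes, 8.62% passed with no filter, 7.14% with at least 10 counts and 12.6% with the DESeq2 Wald test. The share was 8.07% without robust estimation, 3.48% over 2-fold and 3.28% to 10.7% when a library was left out. The cause of these shifts was not tested, beyond the fewer samples or other genes that each alternative admits.

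Of 422 values of single genes under an alternative, 365 kept direction and side of the threshold, 27 lost the call, 2 gained it and 28 changed sign, all 28 in genes not called. With library size only the log2 fold change became 0.0390 for Il17ra, 0.0464 for Il34, 0.0200 for Il18bp and 0.0642 for Il1rap, and with limma-voom 0.0093 for Il34 and 0.0199 for Il1rap. That of Il10rb was -0.0033 with DESeq2 size factors, -0.0664 with upper quartile scaling, -0.0019 with at least 10 counts and -0.0030 with the DESeq2 Wald test. When a library was left out, the ranges were -0.0247 to 0.377 for Il4, -0.203 to 0.0402 for Il4ra, -0.0537 to 0.610 for Il15, -0.115 to 0.0646 for Il17ra, -0.121 to 0.0666 for Il34, -0.393 to 0.155 for Il18bp, -0.410 to 0.337 for Il33, -0.155 to 0.102 for Il1rap and -0.0725 to 0.0719 for Il10rb. No paired analysis was possible because no replicate number occurs in both groups. At this depth 45 of 85 members were not tested, 19 of them above the floor.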

Other observations

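Some members with too few counts for the test differed in their counts. Il9r, the IL-9 receptor, had no count with CAAHR and 1, 6 and 6 counts with GFP, at least 1.73-fold lower. Il21, a cytokine of follicular helper T cells, had no count with CAAHR and 2, 7 and 0 with GFP, so its groups overlapped. Il12b, the shared subunit of IL-12 and IL-23, had 0, 1 and 1 counts against 4, 8 and 3, a ratio of 8.86 in pooled counts (95% counting interval 2.06 to 79.8). Il1f9, a cytokine of the IL-36 group, had 1, 2 and 0 counts against 5, 1 and 12, a ratio of 7.09 (2.07 to 37.6), and its groups overlapped. The eosinophil factor Il5 ran the other way with 0, 3 and 5 counts against 0, 0 and 1, and its groups overlapped. When no filter was applied, the edgeR adjusted p was 0.020 for Il9r, but 0.0684 for Il21 and 0.0981 for Il12b. It was 0.101 for Il1f9 and 0.439 for Il5. The counting intervals do not cover the spread between samples. All these genes were picked here after their values were seen.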
